A study of Mus musculus with 6 samples.

Results

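The 46 genes described here encode the machinery that licenses replication origins and copies DNA at the fork. They were taken by gene name from the 55401 genes of a table of total RNA sequencing, in which all 46 were present, each on 1 row. All 6 libraries came from bone marrow of mice that had received Hoxa9/Meis1 leukaemia cells as a second transplant, a model of acute myeloid leukaemia shared by both groups. Mice 62, 63 and 87 (Lym, n = 3) had received lymphoid leukaemic stem cells, and their libraries are labelled as lymphoid cells. Mice 56, 57 and 91 (Lin-, n = 3) had received Lin- leukaemic stem cells, and their libraries are labelled as Kit-positive progenitor cells without lineage markers. Strain, age, the vector and the donor leukaemia of each mouse are not given in the sources used here. There was 1 library per mouse, and differences within a group are therefore differences between mice.

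Replication begins when the origin recognition complex (ORC) and the factors Cdc6 and Cdt1 load the ring-shaped Mcm2 to Mcm7 helicase onto DNA in G1, a step that geminin (Gmnn) blocks later in the cycle. In S phase Cdc45 and the GINS complex join the ring and turn it into a moving helicase. Behind it polymerase alpha-primase, polymerase delta and polymerase epsilon make new strands. Delta and epsilon work on a sliding clamp (Pcna), which replication factor C (Rfc) sets in place. Many of these genes are controlled by E2F transcription factors, which switch them on as cells enter S phase, and dividing leukaemia cells express them strongly.

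Promoter sequences are shown first because many of these genes carried the same short words near their starts. RefSeq promoters (GRCm38.p6, 250 bases before to 50 bases after the start) were found for 37 of the 46 genes. None was listed for Mcm4, Gmnn, Gins1, Gins2, Gins4, Prim2, Pole, Rfc2 and Tipin. At least 1 of the E2F words TTTCCCGC, TTTGGCGC, TTTCGCGC and TTTGCCGC, searched on both strands, lay in the promoters of 17 of the 37 (45.9%), against 704 of all 27025 genes with a listed promoter (2.6%) and 744 of 32851 promoters (2.26%). These backgrounds were not limited to genes expressed in these libraries, although all 46 were expressed. TTTGCCGC was found in none of the 37. Among genes with a listed promoter, matches lay in 4 of 5 Mcm2 to Mcm7 genes, in 2 of 6 ORC genes, in 1 of 5 genes of the clamp loader and clamp, and in none of 3 genes of replication protein A (RPA). The CCAAT word, bound by factor NF-Y, was in 24 of the 37 (64.9%), against 41.1% of all genes with a promoter. A match is a description of the letters and not evidence of binding, and no test was made. Those shown are Orc1, with the lowest log2 change among the 46, Pole2, whose groups did not overlap, and Mcm5 and Mcm6, 2 helicase subunits in which TTTGGCGC and TTTCGCGC overlapped on opposite strands. Capitals mark the E2F words, read on either strand (GCGCGAAA is TTTCGCGC and GCGCCAAA is TTTGGCGC on the other strand), and each sequence is written 5′ to 3′ on the strand of its gene.
Orc1, chr4:108579204-108579503, plus strand: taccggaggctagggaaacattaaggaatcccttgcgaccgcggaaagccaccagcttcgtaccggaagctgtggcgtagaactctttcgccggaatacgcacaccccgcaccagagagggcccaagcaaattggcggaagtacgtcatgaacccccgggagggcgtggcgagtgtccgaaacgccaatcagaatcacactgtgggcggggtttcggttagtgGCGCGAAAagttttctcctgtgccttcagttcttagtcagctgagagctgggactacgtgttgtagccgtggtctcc
Pole2, chr12:69228141-69228440, minus strand: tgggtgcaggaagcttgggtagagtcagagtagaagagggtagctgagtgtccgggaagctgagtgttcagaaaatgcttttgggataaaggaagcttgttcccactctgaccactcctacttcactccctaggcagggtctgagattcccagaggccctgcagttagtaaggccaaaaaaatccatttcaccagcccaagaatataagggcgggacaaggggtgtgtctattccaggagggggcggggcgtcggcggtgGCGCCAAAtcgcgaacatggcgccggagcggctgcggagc
Mcm5, chr8:75109259-75109558, plus strand: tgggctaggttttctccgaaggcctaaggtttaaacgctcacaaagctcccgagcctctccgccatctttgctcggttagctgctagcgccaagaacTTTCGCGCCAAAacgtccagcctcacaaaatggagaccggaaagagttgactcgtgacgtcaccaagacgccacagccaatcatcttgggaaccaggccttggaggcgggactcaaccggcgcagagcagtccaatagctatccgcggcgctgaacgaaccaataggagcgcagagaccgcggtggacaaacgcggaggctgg
Mcm6, chr1:128359656-128359955, minus strand: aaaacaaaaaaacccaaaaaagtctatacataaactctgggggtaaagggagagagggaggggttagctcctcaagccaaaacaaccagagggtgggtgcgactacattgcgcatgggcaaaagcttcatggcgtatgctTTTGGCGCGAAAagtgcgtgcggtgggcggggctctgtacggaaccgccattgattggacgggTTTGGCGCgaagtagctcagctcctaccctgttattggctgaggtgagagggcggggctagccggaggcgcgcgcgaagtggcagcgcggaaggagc
The 23 matches in these promoters fell on both sides of the start, 12 before it and 11 at or after it, and 5 genes had more than 1. The median log2 change between groups was -0.26 for the 17 genes with an E2F word and -0.23 for the 20 without.

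**Figure D1:**
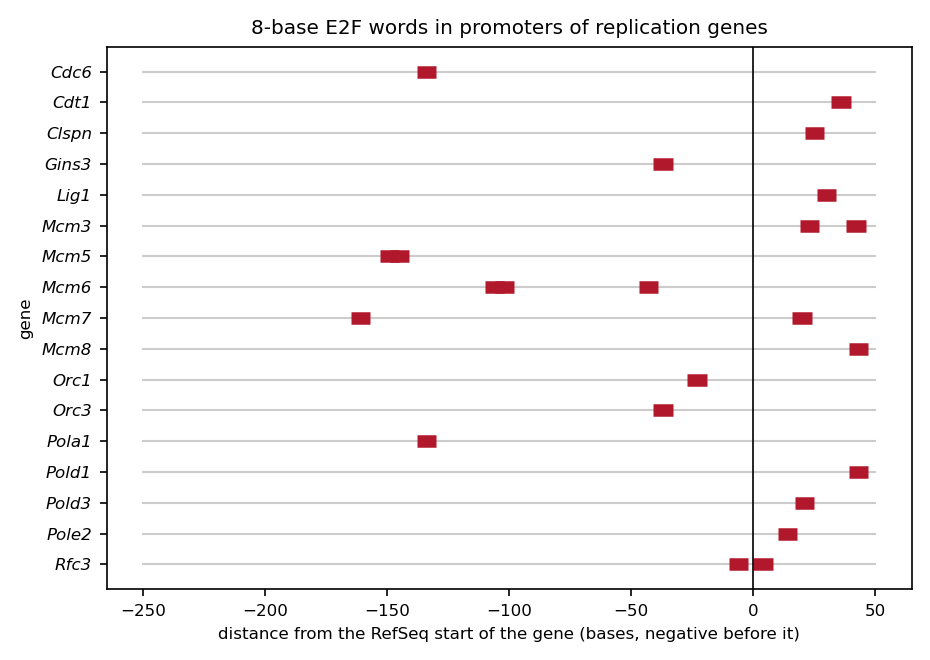
Positions of the 4 E2F words (red) in the 300-base RefSeq promoters of the 17 replication genes that hold one, 1 line per gene, by distance in bases from the RefSeq start (vertical line). Mcm6 has 3 matches, Mcm3, Mcm5, Mcm7 and Rfc3 have 2, and the others have 1.

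Reads assigned to genes came to 18537700 to 22634286 per library, and the least counted value among the 46 genes was 127 reads (Orc1 in Lym mouse 62). The Lym library of mouse 62 was made from 1 ng of RNA and the others from 2 ng. Libraries of Lym mice 63 and 87 had reads in 24027 and 23836 genes, and the others in 19427 to 20358. Mitochondrial genes held 4.7% (Lin- mouse 56) to 10.02% (Lin- mouse 57) of reads. A part of these library differences in the results was not tested. Both groups expressed Kit, the receptor in the Lin- label, at 18902, 12027 and 3158 normalized counts in Lym mice 62, 63 and 87 and at 4953, 6066 and 3420.2 in Lin- mice 56, 57 and 91. The early lymphoid receptor gene Il7r was at 424, 82.8 and 14.3 in Lym and 2.65 to 4.13 in Lin-. Lym mouse 87 was thus nearer to the Lin- mice than mice 62 and 63 in both genes. Of the early B genes, Pax5, Cd79a and Blnk were at or near 0 in both groups, at normalized counts of at most 0.953, 4.48 and 3.36. Rag2 was at 361, 119.7 and 27.6 in Lym and 13.4 to 38.7 in Lin-, and Dntt at 216, 29.1 and 4.76 in Lym and at 0 in Lin-. Rag1, Ebf1, Vpreb1 and Igll1 were highest in Lym mouse 62, at 104, 59.4, 63.9 and 44.9, and at most 14.3 in any other mouse. Cd79b was at 255, 28 and 244 in Lym and 414, 45.8 and 284 in Lin-. Vpreb2 had no read in any library. Reads of the 14 early B markers, of which 4 passed the filter on low values, mostly the general leukocyte gene Ptprc, summed to 323 to 529 CPM in Lym (reads scaled to a common library total) and 315 to 334 in Lin-, with Lym mouse 87 at 323. The 5 markers of Kit-positive progenitors summed to 2518 to 4509 CPM in Lym and 2120 to 2379 in Lin-, and the 9 myeloid markers to 3401 to 3731 and 4219 to 7687, with Ly6g at 0 throughout. The 7 T-cell markers reached at most 2.56 CPM together and 4 markers of natural killer cells at most 10.7. The 8 erythroid markers, mostly Tfrc, summed to 64.9 to 95.1 CPM in Lym and 48.6 to 75.9 in Lin-, with Epor and the globins Hba-a1, Hbb-bs and Hbb-bt at 0. The 4 megakaryocyte markers summed to 2.34 to 26.2 and 0.901 to 2.36 CPM, and the 5 stroma and vessel markers, mostly Pecam1 and Pdgfrb, to 362 to 648 and 285 to 339 CPM. Whether these marker genes have a part in the replication results was not tested. RNA of a mixed cell population was measured, so fewer cycling cells and less RNA per cycling cell cannot be told apart.

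In every comparison below, values are normalized counts in the order of mice 62, 63 and 87 for Lym and 56, 57 and 91 for Lin-. Differences are Lym minus Lin- on the scale of log2(normalized count + 2), with the standard error (SE) of limma, a linear model fitted across genes, and a Benjamini-Hochberg adjusted p over the 14273 genes that passed the filter on low values. All 46 genes passed it, none of them through 1 group alone.

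In most of the replication genes Lym mice 62 and 63 lay below the Lin- mice, while Lym mouse 87 lay inside or above their range. Taking each gene relative to its mean over the 6 libraries, the median over the 46 genes was -0.25, -0.43 and 0.26 (log2) in Lym and 0.19, 0.00 and 0.23 in Lin-. The median over all genes tested was 0.01 in every library, a value that the scaling of libraries to each other holds near 0. The library of Lym mouse 63 held the lowest of the 6 values in 37 of the 46 genes, against 18.6% of all genes tested. That of Lym mouse 87 held the highest in 21, against 16.1%. Lym mouse 62 lay below all 3 Lin- mice in 35 of the 46 genes, where 35.1% of all genes did so, and above them in 1 (Rfc2), where 35.6% did. Lym mouse 63 lay below all 3 in 42 genes (33.3% of all genes) and above them in 0 (31.6%). Lym mouse 87 lay below all 3 in 3 genes, Orc2, Orc5 and Pole2 (24.7% of all genes), above them in 21 (27.3%) and inside their range in 22. Reads of the 46 genes together came to 4901, 4394 and 7170 CPM in Lym and 6946, 5929 and 6744 CPM in Lin-.

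**Figure D2:**
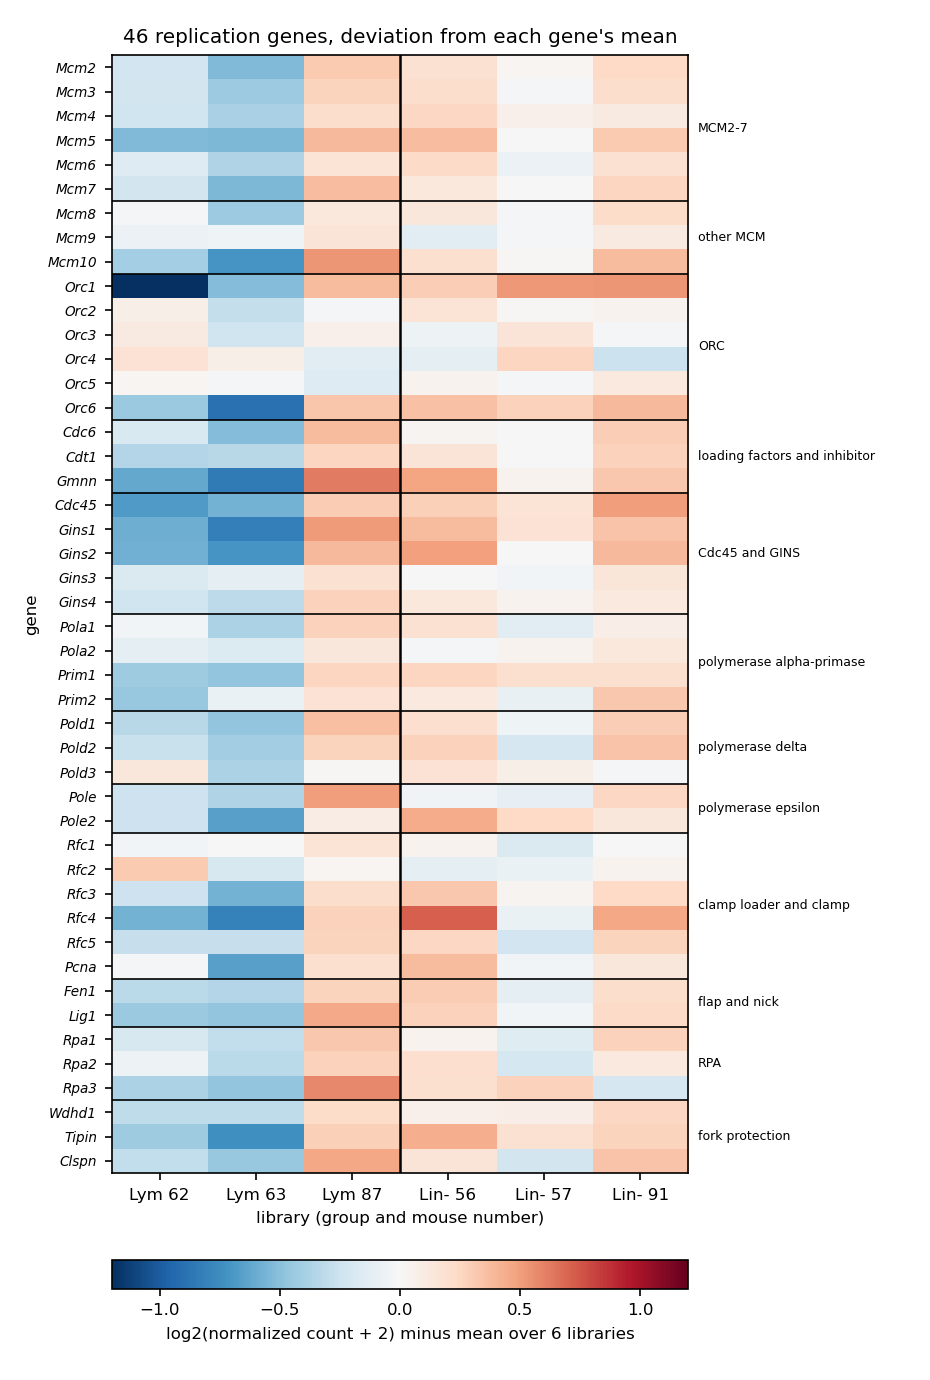
Deviation of log2(normalized count + 2) from the mean of each gene over 6 libraries, for 46 genes (rows, ordered by role) in 3 Lym and 3 Lin- libraries (columns); red is above the mean and blue below it. The columns of Lym mice 62 and 63 are mostly blue (medians -0.25 and -0.43) and that of Lym mouse 87 mostly red (0.26).

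None of the 46 genes passed the test between Lym and Lin- at an adjusted p of 0.05. limma called 0 of the 46, as it called 0% of all genes tested, of which 1459 had an unadjusted p under 0.05. Over all genes edgeR and limma-voom also called 0 and DESeq2 called 226, none of them among the 46. At an unadjusted p under 0.05, in either direction, edgeR had 1 of the 46 genes and 1444 of all 14273 genes tested. DESeq2 had 6 of the 46 and 1872 of 31604 genes, and limma-voom 6 of the 46 and 1362 of 14273. limma had 6, Orc1, Orc6, Cdc45, Pole2, Rfc4 and Tipin, all lower in Lym, where 4.27% of all genes tested were lower at that level. The log2 change was below 0 in 42 of the 46 genes, against 51.3% of all genes tested, and its median was -0.26, against -0.01. That median was -0.46 without Lym mouse 87 and -0.11 without Lym mouse 63. The 4 genes with a change above 0 were Mcm9, Orc4, Rfc1 and Rfc2. Groups did not overlap in 1 gene, Pole2, which was lower in Lym. Among all genes tested 7.08% were apart with Lym lower and 8.49% with Lym higher. The ratio of the highest to the lowest library had a median of 1.68 over the 46 genes, against 1.79 over all genes tested, and ran from 1.2 (Orc5) to 3.36 (Orc1).

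The count of called genes depended on the library of Lym mouse 87. Without it limma called 19 of the 46 genes, all lower in Lym, where 4.18% of 13942 genes tested were called lower. These were Mcm2, Mcm3, Mcm4, Mcm5, Mcm7, Mcm10, Orc1, Orc6, Cdt1, Gmnn, Cdc45, Gins1, Gins2, Prim1, Pold1, Rfc4, Lig1, Wdhd1 and Tipin. With a weight estimated for each library limma called 6, Orc1, Orc6, Cdc45, Gins1, Rfc4 and Tipin (1.64% of all genes tested were called lower). The library of Lym mouse 87 had the lowest weight, 0.361. That of Lym mouse 63 had the highest, 2.19, and that of Lym mouse 62 had 0.544. The weighted Lym mean thus rested mostly on mouse 63.

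**Figure D3:**
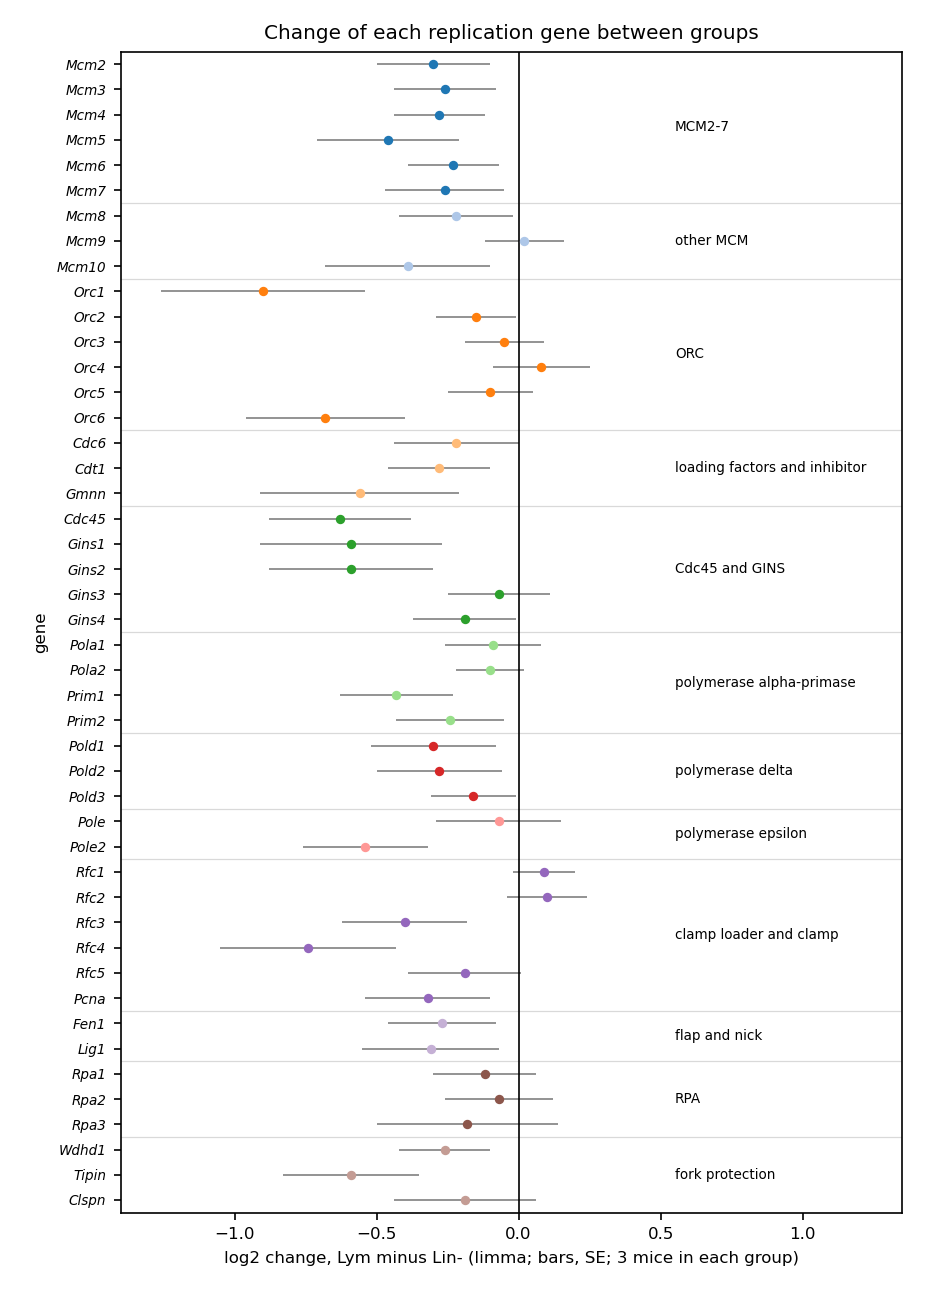
Log2 change, Lym minus Lin-, of each of the 46 genes (points; bars, SE from limma; 3 mice in each group), ordered and coloured by role. Cdc45, Gins1 and Gins2 lie near -0.6 and Orc1 at -0.90, while Mcm9, Orc4, Rfc1 and Rfc2 lie just above 0.

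The 6 genes of the Mcm2 to Mcm7 helicase all had log2 changes below 0. These log2 changes ran from -0.46 (Mcm5) to -0.23 (Mcm6), with a median of -0.27 and a lowest adjusted p of 0.541 in limma. The median was -0.11 without Lym mouse 63 and -0.48 without Lym mouse 87. All 6 lay below the Lin- range in Lym mice 62 and 63, and 4 lay above it in Lym mouse 87. Per length they were among the most abundant of the 46, at means of 52.7 (Mcm2) to 158 (Mcm6) RPKM, which is CPM per kilobase of exon. Mcm6 (chromosome 1, 128331590 to 128359664 in GRCm38) stood at 13292, 11576 and 16664 in Lym and 17438, 14103 and 16853 in Lin-, a log2 change of -0.23 ± 0.16 (SE, limma adjusted p = 0.611). Its groups overlapped, with mouse 63 lowest. Mcm5, whose promoter is printed above (chromosome 8, 75109569 to 75128439), was at 4261, 4234 and 8081 in Lym and 7993, 6146 and 7651 in Lin-, with mouse 87 highest and the other 2 Lym mice lowest. The ratio of Mcm6 to Mcm4, on the RPKM scale, stayed between 1.86 and 2.17 in the 6 libraries although both genes varied. No other pair of these genes was set in a ratio. Relative to the Lin- mean, Mcm5 was at 0.587, 0.583 and 1.11 in Lym and Mcm6 at 0.824, 0.718 and 1.03.

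The 3 other Mcm genes have roles outside that ring. Mcm8 and Mcm10 lay below the Lin- range in Lym mice 62 and 63, and Mcm9 did not. The median log2 change of the 3 was -0.22, and it was -0.06 without Lym mouse 63 and -0.34 without Lym mouse 87.
Mcm10, which helps to activate the helicase (chromosome 2, 4989714 to 5012791), was at 1314, 1071 and 2519 in Lym and 1996, 1765 and 2272 in Lin-, a log2 change of -0.39 ± 0.29 (limma adjusted p = 0.637). Mouse 87 had its highest value and mouse 63 its lowest. Mcm9, which acts with Mcm8 in recombination repair (chromosome 10, 53536315 to 53630439), stood at 844, 852 and 986 in Lym and 805, 876 and 955 in Lin-. Its log2 change was 0.02 ± 0.14 (limma adjusted p = 0.961), and it turned to -0.02 when libraries were scaled by total reads. The exons of Mcm9 share 19.2% of their bases with Asf1a on the other strand. Mcm8 was at 414, 309 and 458 in Lym and 461, 415 and 488 in Lin-, a log2 change of -0.22.

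Within ORC, Orc1 and Orc6 had lower log2 changes than the 4 other subunits, which lay between -0.15 and 0.08. The median of the 6 was -0.12, and -0.08 without Lym mouse 63 and -0.18 without Lym mouse 62. Orc1, the subunit whose protein rises and falls with the cell cycle (chromosome 4, 108579423 to 108614833), was at 142, 231 and 433 in Lym and 407, 477 and 479 in Lin-, a log2 change of -0.90 ± 0.36 (limma adjusted p = 0.467), the lowest of the 46. Its means were 269 ± 149 (SD, n = 3) and 454 ± 41.1 (SD, n = 3). Mouse 62 had 0.314 of the Lin- mean and mouse 63 had 0.508, while mouse 87, at 0.953 of that mean, fell inside the Lin- range. Orc6 (chromosome 8, 85299632 to 85308278) was at 439.6, 322 and 754 in Lym and 764, 725 and 789 in Lin-, with a log2 change of -0.68 ± 0.28 (limma adjusted p = 0.469). The Lin- values of Orc6 were close together, and mouse 87 lay among them.
Orc2, the most abundant subunit per length at 17.2 RPKM (chromosome 1, 58462771 to 58505109), stood at 1419, 1108 and 1337 in Lym and 1516, 1362 and 1385 in Lin-, a log2 change of -0.15 ± 0.14 (limma adjusted p = 0.712). Mouse 62 lay inside the Lin- range, mouse 87 just below it and mouse 63 further below. Reads of Orc2 are uncertain because 29.8% of its exon bases also belong to Nif3l1 on the other strand. Orc4 (chromosome 2, 48902824 to 48950277) was at 967, 897 and 785 in Lym and 786, 1022 and 714 in Lin-, a log2 change of 0.08 ± 0.17 (limma adjusted p = 0.879), and at -0.03 without Lin- mouse 91. Orc3 and Orc5 had log2 changes of -0.05 and -0.10. On the RPKM scale the ratio of Orc1 to Orc2 was 0.111, 0.231 and 0.359 in Lym and 0.297, 0.388 and 0.383 in Lin-, and that of Orc6 to Orc2 was 0.484, 0.454 and 0.881 against 0.787, 0.832 and 0.89.

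**Figure D4:**
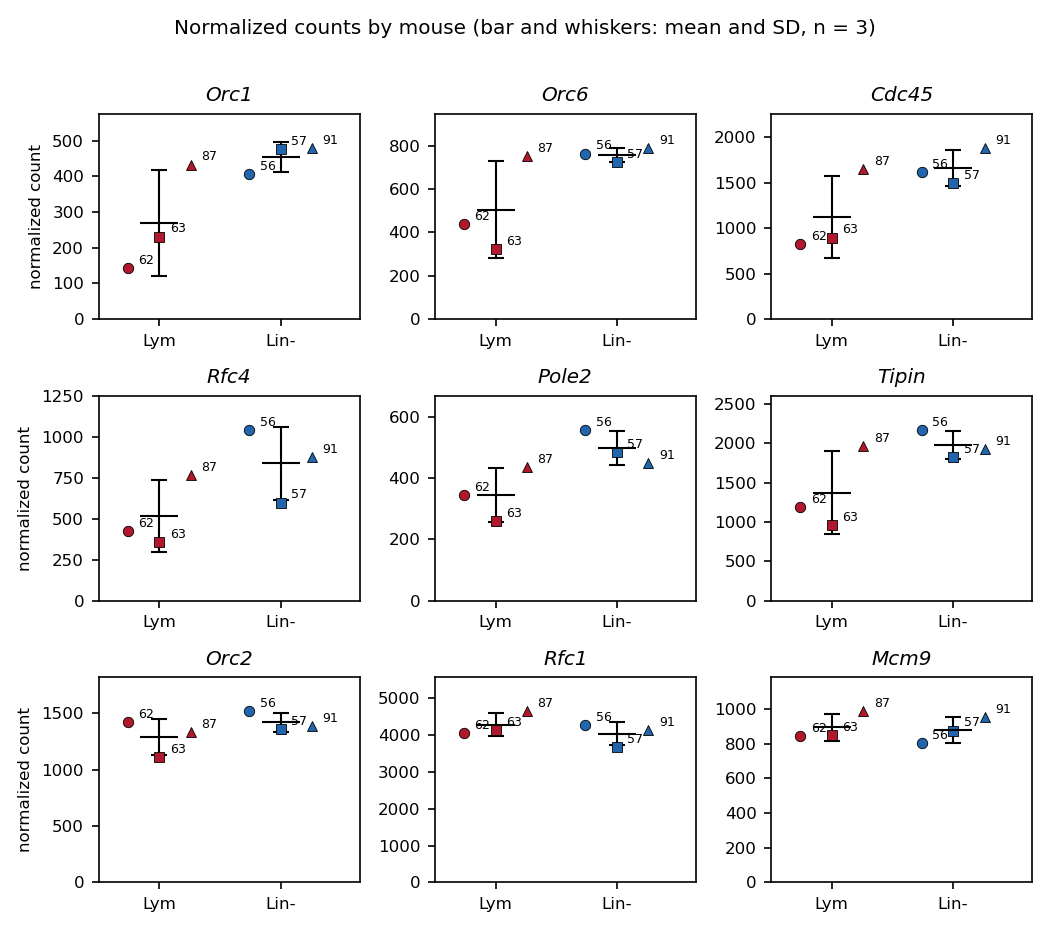
Normalized counts of 9 genes in each mouse (points with mouse numbers; red, Lym; blue, Lin-), with the mean and SD of 3 mice per group. In Orc1, Orc6, Cdc45, Rfc4 and Tipin, Lym mice 62 and 63 lie below all Lin- mice and mouse 87 lies among them; in Rfc1 and Mcm9 the mice of both groups mix.

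The loading factors Cdt1 and Cdc6, and geminin, which inhibits Cdt1, lay below the Lin- range in Lym mice 62 and 63. The median log2 change of the 3 genes was -0.28, and it was -0.18 without Lym mouse 62 and -0.48 without Lym mouse 87. Cdt1, which brings the helicase to ORC (chromosome 8, 122568015 to 122573554), was at 2083, 2112 and 3188 in Lym and 2958, 2649 and 3221 in Lin-, a log2 change of -0.28 ± 0.18 (limma adjusted p = 0.59). Mouse 87 lay inside the Lin- range. Cdc6 had a log2 change of -0.22. Gmnn was at 456, 388 and 1081 in Lym and 974, 723 and 874 in Lin-, with a log2 change of -0.56. On the RPKM scale the ratio of Cdt1 to Gmnn was 2.13, 2.54 and 1.38 in Lym and 1.42, 1.71 and 1.72 in Lin-, so that mice 62 and 63 lay above the Lin- mice and mouse 87 below them.

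Cdc45 and the GINS genes had the lowest median log2 change of the 12 groups of roles, -0.59, which was -0.93 without Lym mouse 87 and -0.33 without Lym mouse 63. It came from Cdc45, Gins1 and Gins2, while Gins3 and Gins4 lay nearer to 0. Cdc45, a part of the moving helicase (chromosome 16, 18780447 to 18811987), was at 828, 895 and 1647 in Lym and 1619.7, 1493 and 1880.3 in Lin-. Its log2 change was -0.63 ± 0.25 (limma adjusted p = 0.464). The means were 1123 ± 455 and 1664 ± 197 (SD, n = 3 each). Mice 62 and 63 had 0.497 and 0.538 of the Lin- mean of Cdc45, and mouse 87 had 0.990. Gins1 and Gins2 both had a log2 change of -0.59. Gins1 was at 401, 340.2 and 860.4 in Lym and 783, 679 and 764 in Lin-, with mouse 87 highest. Gins2 was at 391, 356 and 765 in Lym and 822, 582 and 764 in Lin-. Gins3 had a log2 change of -0.07. Reads of Gins2 are uncertain, since 67.3% of its exon bases also belong to Gse1 on the other strand. Gins4, the most abundant GINS gene per length at 25.9 RPKM (chromosome 8, 23226616 to 23237659), stood at 597, 564 and 849.9 in Lym and 767, 724 and 763 in Lin-, a log2 change of -0.19 ± 0.18 (limma adjusted p = 0.725). The ratio of Gins1 to Gins3, 2 subunits of the same complex, was 2.26, 1.84 and 3.80 in Lym and 3.91, 3.48 and 3.45 in Lin- on the RPKM scale.

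The polymerase genes had median log2 changes of -0.17 for polymerase alpha-primase, -0.28 for delta and -0.31 for epsilon. Without Lym mouse 87 these medians were -0.32, -0.48 and -0.53. For alpha-primase the median was -0.08 without Lym mouse 62, -0.10 without Lin- mouse 91 and -0.26 without Lin- mouse 57. Without Lym mouse 63 it was -0.13 for both delta and epsilon. Pola1, the catalytic subunit of polymerase alpha (chromosome X, 93304767 to 93632155), was at 3613, 2841 and 4483 in Lym and 4200.1, 3369.8 and 3912 in Lin-, a log2 change of -0.09 ± 0.17 (limma adjusted p = 0.872). Prim1, the catalytic primase subunit, was at 851, 822 and 1368 in Lym and 1371, 1306 and 1306 in Lin-, with the lowest log2 change of its group at -0.43. Pold2, an accessory subunit of polymerase delta (chromosome 11, 5872180 to 5878292), stood at 906, 813 and 1307 in Lym and 1319.8, 946 and 1378 in Lin-, a log2 change of -0.28 ± 0.22 (limma adjusted p = 0.657). Lin- mouse 57 lay close above Lym mouse 62 in Pold2.
The 2 subunits of polymerase epsilon did not share the high value of Lym mouse 87. Pole, the catalytic subunit that extends the leading strand (chromosome 5, 110286306 to 110337474), was at 3308, 3077 and 5568 in Lym and 3836, 3677 and 4682 in Lin-, a log2 change of -0.07 ± 0.22 (limma adjusted p = 0.92), and mouse 87 had its highest value. Pole2, its second subunit (chromosome 12, 69201773 to 69228195), was at 344, 259.6 and 436 in Lym and 558, 484 and 449.7 in Lin-, a log2 change of -0.54 ± 0.22 (limma adjusted p = 0.467). The means were 347 ± 88.4 and 497 ± 55.1 (SD, n = 3 each). All 3 Lym mice were below all 3 Lin- mice, with mouse 87 close under Lin- mouse 91. The ratio of Pole2 to Pole on the RPKM scale was 0.403, 0.327 and 0.304 in Lym and 0.563, 0.51 and 0.372 in Lin-.

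The 5 clamp loader genes split, Rfc3, Rfc4 and Rfc5 lying below all Lin- mice in Lym mice 62 and 63, and Rfc1 and Rfc2 not in both. With Pcna their median log2 change was -0.26, and it was -0.44 without Lym mouse 87, -0.39 without Lin- mouse 57, -0.17 without Lin- mouse 56 and -0.09 without Lym mouse 63. Rfc4 (chromosome 16, 23113943 to 23127737) was at 427, 359 and 768 in Lym and 1044, 599 and 875 in Lin-, a log2 change of -0.74 ± 0.31 (limma adjusted p = 0.473). Its means were 518 ± 219 and 839 ± 224 (SD, n = 3 each). The Lin- values of Rfc4 were spread, and mouse 87 lay inside them. Of its exon bases, 12.7% also belong to Eif4a2 on the other strand. Rfc1, the large subunit (chromosome 5, 65261850 to 65335670), stood at 4059, 4140.2 and 4643 in Lym and 4279.5, 3678 and 4149 in Lin-, a log2 change of 0.09 ± 0.11 (limma adjusted p = 0.806). Rfc2 (chromosome 5, 134581366 to 134601805) was at 3153, 2229 and 2588 in Lym and 2365, 2404 and 2611 in Lin-, with a log2 change of 0.10 ± 0.14 (limma adjusted p = 0.827) that became -0.03 without Lym mouse 62. In Rfc2 15.1% of the exon bases are shared with Lat2. The log2 changes of Rfc3 and Rfc5 were -0.40 and -0.19. On the RPKM scale the ratio of Rfc4 to Rfc1 was 0.413, 0.341 and 0.65 in Lym and 0.958, 0.64 and 0.828 in Lin-. Pcna, the clamp itself (chromosome 2, 132249162 to 132253314), was at 2245, 1454 and 2608 in Lym and 2983, 2238 and 2507 in Lin-, a log2 change of -0.32 ± 0.22 (limma adjusted p = 0.606). Mouse 62 lay inside the Lin- range of Pcna and mouse 63 far below it. The pseudogene Pcna-ps2 held 27 to 74 reads per library, which may belong to Pcna.

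Genes that finish the lagging strand (Fen1, Lig1) had a median log2 change of -0.29, and those that coat single-stranded DNA (Rpa1, Rpa2, Rpa3) one of -0.12. Without Lym mouse 87 these medians were -0.54 and -0.31. That of Fen1 and Lig1 was -0.17 without Lym mouse 62 and -0.16 without Lym mouse 63. All 5 lay below the Lin- range in Lym mouse 63, and all but Rpa2 also in mouse 62. Fen1, the flap nuclease (chromosome 19, 10199132 to 10204169), was at 2790.3, 2733 and 4187 in Lym and 4317, 3233 and 4046 in Lin-, a log2 change of -0.27 ± 0.19 (limma adjusted p = 0.619). Of the Fen1 exon bases, 78.8% also belong to Gm10143 on the other strand, which held 5 to 25 reads per library. Lig1, the ligase that seals nicks, had a log2 change of -0.31. Rpa1, the large subunit of RPA (chromosome 11, 75298166 to 75348324), stood at 2941, 2736 and 4212 in Lym and 3472, 3047 and 4074 in Lin-, a log2 change of -0.12 ± 0.18 (limma adjusted p = 0.84). Rpa2 and Rpa3 had log2 changes of -0.07 and -0.18. All 3 RPA genes were above the Lin- range in Lym mouse 87, and the median of the 3 was 0.01 without Lym mouse 63, -0.05 without Lym mouse 62, -0.03 without Lin- mouse 91 and -0.19 without Lin- mouse 57.

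The 3 fork protection genes had a median log2 change of -0.26, which was -0.47 without Lym mouse 87 and -0.17 without either of the other 2 Lym mice. Tipin, a partner of Timeless that stabilizes paused forks (chromosome 9, 64281581 to 64305424), was at 1192, 961 and 1963 in Lym and 2171, 1823 and 1928 in Lin-, a log2 change of -0.59 ± 0.24 (limma adjusted p = 0.467). Mouse 87 lay inside the Lin- range. Wdhd1, which tethers polymerase alpha to the helicase, and Clspn, a mediator of checkpoint signalling, had log2 changes of -0.26 and -0.19.

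A wider list held 68 other genes of origin firing, nucleotide supply, chromatin assembly, checkpoint and E2F control. Its median log2 change was -0.18, with 55 of 68 below 0, against -0.01 and 51.3% over all genes tested. None was called by limma, edgeR or limma-voom, which called 0 of all 14273 genes tested, so this is not particular to the list. In limma 3 had an unadjusted p under 0.05 with Lym lower, against 4.27% of all genes tested. With Lym higher there was 1, against 850 of all 14273 genes tested. Its lowest log2 changes were those of the nuclease-helicase Dna2 (1010.5, 1247 and 2004 in Lym, 1853, 2208 and 2080.4 in Lin-), the ribonucleotide reductase subunit Rrm2 (1271, 1316 and 3315 against 2740.1, 1985 and 3359) and cyclin E1, Ccne1 (269, 264 and 616 against 496, 412 and 674). They were -0.58, -0.57 and -0.55, with limma adjusted p of 0.465, 0.588 and 0.588. Its highest were those of the topoisomerases Top2b (0.33) and Top1 (0.25) and of the E2F partner Tfdp2 (0.23). Groups did not overlap in 4 genes lower in Lym, Pole4, Dtl, Rad1 and Rad17, and in 2 higher in Lym, Top2b and Rbl2, all 6 named after their values were seen. These are 4 and 2 of 68, against 7.08% and 8.49% of all genes tested, and so no more than that background. Pole4 codes for a small subunit of the same polymerase epsilon as Pole2. It stood at 456, 423 and 486 in Lym against 633, 583 and 639 in Lin-. Groups overlapped in Pole3, a further subunit gene of the list, at 908, 962 and 1334 in Lym and 1494, 1101 and 1295 in Lin-. The log2 change of Pole3 was -0.29 (limma adjusted p = 0.593), and that of the catalytic Pole was -0.07.

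Genes of mitosis, set beside the replication genes with no test of the difference, had another order of the mice. The 22 of them had a median log2 change of -0.09, with 13 below 0, against 51.3% of all genes tested. None was called by limma, edgeR or limma-voom, which called 0 of all genes tested. In limma 0 of the 22 had an unadjusted p under 0.05, against 1459 of all 14273 genes tested. Lym mouse 87 lay above the Lin- range in all 22 and in 21 of the 46 replication genes, against 27.3% of all genes tested. Lym mice 62 and 63 each lay below that range in 12 of the 22, where 35.1% and 33.3% of all genes did so. Taking each mitosis gene relative to its mean over the 6 libraries, the median was -0.37, -0.31 and 0.57 (log2) in Lym. It was 0.18, -0.3 and 0.26 in Lin-. Reads of the 22 genes summed to 2570, 2579 and 4805 CPM in Lym and 3376, 2515 and 3581 CPM in Lin-. Lin- mouse 57 was thus as low as Lym mice 62 and 63 in mitosis genes, while in the 46 replication genes it lay above them, at 5929 CPM. The proliferation marker Mki67 was at 25019, 24671 and 46231 in Lym and 28571, 21068 and 34789 in Lin-.

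**Figure D5:**
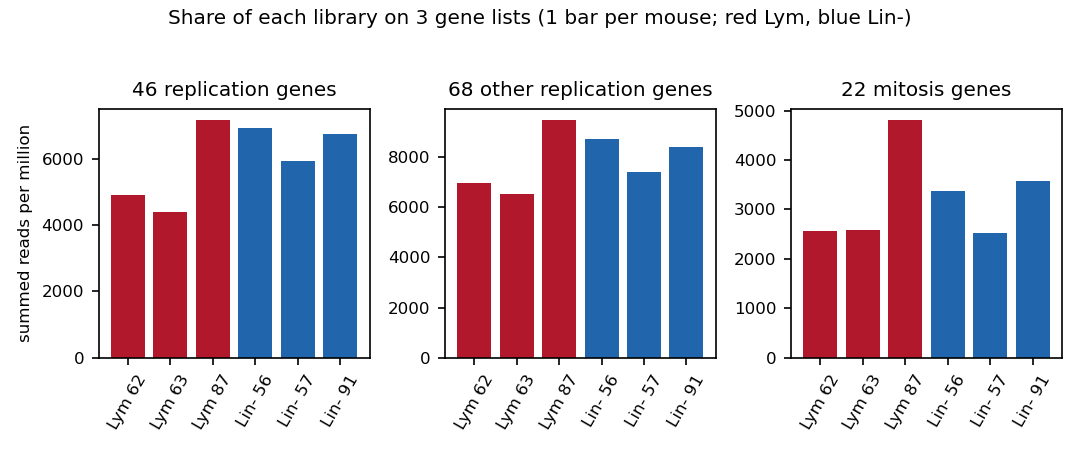
Summed CPM in each library (1 bar per mouse; red, Lym; blue, Lin-) for the 46 replication genes, 68 other replication genes and 22 mitosis genes. Lym mouse 87 is highest in each panel; Lin- mouse 57 exceeds Lym mice 62 and 63 in the first 2 panels and not in the third.

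The authors' deposited table also compares these 6 libraries, and in it 42 of the 46 genes were higher in Lin- and 0 had an adjusted p under 0.05. The lowest adjusted p in the authors' deposited table was 0.703, for Rfc4, and 0.32% of the 31604 genes with a value passed. Since the libraries are the same, this is no separate evidence.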

How the data were processed

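RNA of 6 libraries was sequenced as 38-base reads after 12 PCR cycles, per the labels' protocols. The submitters' processing notes name the trimmer Trim Galore 0.6.4, the aligner STAR 2.6.1d, the read counter featureCounts 1.6.4, DESeq2 and the build GRCm38.p6. Neither the strand setting nor the annotation release is given in the sources used here. Each deposited library value is a normalized signal, read here from its values as gene counts that the authors divided by a factor for that library. All values checked were whole multiples of a step per library (100%, tolerance 0.01), so whole reads were recovered. Per the file headers, the authors also gave a log2 fold change with its error, a Wald score and p-values. All 46 genes matched GENCODE M21 by identifier and position. Overlapping genes and near-identical copies are uncertain, because how the authors split shared reads is not stated.

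limma 3.58.1 (R 4.3.3) with the trend option was fitted to log2(normalized count + 2) over the 14273 genes that reached 10 normalized counts in 3 or more libraries. A gene was called below an adjusted p of 0.05. edgeR 4.0.16, DESeq2 1.42.0 and limma-voom on recovered reads, other scalings, filters and pseudocounts, library weights and leaving out each mouse were alternatives. RPKM values used the table's gene lengths, which equal merged exon lengths for all 46. Promoters are those of RefSeq. Fits were run on simulated data with changes larger than those of the 46 genes, so recovery of changes this small was not tested. Other software was Python 3.11.15 with pandas 2.3.3 for tables and matplotlib 3.10.9 for figures.

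The members, gene lists and roles were chosen with earlier results of these data known. Genes given in full are the 4 with the highest and the 4 with the lowest log2 change, those with groups apart, and the most abundant per length in each of the 12 groups of roles; others named, such as Mcm5, Gmnn, Gins1, Gins2 and Prim1, were chosen after their values were seen. Of the wider list, the 3 highest and 3 lowest log2 changes are named. The pairs of genes given as ratios were picked by hand and follow no rule.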

Additional observations from a re-analysis of the deposited data

How the results depend on the processing

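No paired analysis was possible because the mouse numbers are not shared between groups. The count of all genes called, 0 in the main test, was 226 with DESeq2, 5 with no filter, 1 with a pseudocount of 8, 660 with library weights, and 0 to 1348 when single mice were left out (1348 without Lym mouse 87, 1 without Lin- mouse 91). Called replication genes numbered 6 with library weights and 0 to 19 when single mice were left out (19 without Lym mouse 87). The median of the RPA genes ran from -0.31 to 0.01 over the left-out mice. Signs changed in genes with small log2 changes: Mcm9 was -0.02 with scaling by total reads and -0.05 with library weights, and Rfc2 was -0.05 with library weights. Over left-out mice Mcm9 ran from -0.05 to 0.09, Orc4 from -0.03 to 0.23, Pola1 from -0.25 to 0.08, Pole from -0.34 to 0.09, Rfc2 from -0.03 to 0.22 and Rpa1 from -0.31 to 0.01. For these changes the cause was not tested. The median over the 46 genes stayed below 0 in every alternative, from -0.46 to -0.11. With 3 mice a group, limma p-values set the group difference against the spread between these animals, with variances partly shared across genes. The donor leukaemia of each mouse is not given, so whether the mice of a group carry separate leukaemias is not known.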

Other observations

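E2F factors and the pocket proteins that restrain them, both from the wider list and picked here after their values were seen, did not share one order of mice. E2f1, an activator of S-phase genes, had 578, 676 and 1074 normalized counts in Lym against 1027, 848 and 1281 in Lin- (values in the order of mice 62, 63, 87 and 56, 57, 91), and its log2 change was -0.47 ± 0.25 (limma adjusted p = 0.537). E2f3 (746, 736 and 872 in Lym, 831, 759 and 844 in Lin-) differed less between mice. Rbl2, a pocket protein known from resting cells, stood at 3619, 3491 and 3152 in Lym and 2959.8, 2733 and 3023 in Lin-, a log2 change of 0.23 ± 0.11 (limma adjusted p = 0.507), with all 3 Lym mice above all 3 Lin- mice. Its relative Rbl1 was at 2938, 2078 and 3242 in Lym and 3683, 2975 and 3528 in Lin-, a log2 change of -0.32.

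Enzymes that supply deoxynucleotides, chosen in the same way, were low in Lym mice 62 and 63 and not in mouse 87. Thymidylate synthase (Tyms) was at 681, 566 and 1183 in Lym and 1067, 965 and 1147 in Lin-. Thymidine kinase (Tk1) stood at 911, 990.3 and 1798 in Lym and 1490.0, 1491 and 1603 in Lin-. Rrm1, the large subunit of ribonucleotide reductase, was at 4792, 4506 and 7151 in Lym and 6561, 4846 and 6503 in Lin-, where Lin- mouse 57 lay close above Lym mouse 62. None of these genes passed in limma, which called 0 of all genes tested.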
